A study of Mus musculus with 12 samples.

Results

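The transcripts described here encode kinases of the p38 and ERK mitogen-activated protein (MAP) kinase cascades and 3 dual-specificity phosphatases (DUSPs) that switch them off, measured in mouse splenic dendritic cells. The members were the probe sets to which the platform annotation gave, as their only symbol, Map2k1, Map2k3, Map2k4, Mapk3, Mapk14, Mapkapk2, Dusp1, Dusp2 or Dusp6. This rule found 13 of the 12422 non-control probe sets, for 8 of the 9 genes. Mapk3, which encodes ERK1, was not matched to a probe set and was not analysed here. The 9 genes were chosen by their names with results of these arrays in view, and which measured values weighed in that choice is not recorded. Their values are therefore a description. An adjusted p shows where a member stands in the fit of all tested probe sets and is no independent evidence.

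MAP kinase cascades carry signals from surface receptors and from stress to the nucleus by successive phosphorylation, from a MAP kinase kinase to a MAP kinase and on to further kinases and transcription factors. ERK is best known for growth factor and RAS signals, and p38 for stress and Toll-like receptor signals, through which it supports cytokine production and maturation of dendritic cells. DUSPs remove the activating phosphates and are themselves often induced by the pathway, as a feedback. Arrays measure transcript abundance and not kinase activity, which depends on phosphorylation.

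Cells of high CD11c were sorted from spleen into CD4+ cells, CD8+ cells and cells negative for both (double-negative, DN). Each subset was processed directly (fresh) or after 2 h in tissue culture medium at 37 °C (cultured), with 2 arrays in each of the 6 groups. The labels name no strain, age, genotype or added agent, and do not say whether animals were pooled or whether replicates came from separate animals. The p-values thus reflect only sample-to-sample spread, part or all of which may be technical. Values are Average Difference intensities, a linear measure of probe set brightness that can fall below 0.

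One label of fresh CD8+ replicate 1 calls its cells CD4 positive, while its other labels say CD8+. Its intensity of Cd8a was 1210.4 and that of Cd4 was 92.0, and it was used as CD8+. All 10 listed dendritic cell markers lay above the detection floor of 91.37 on every array. Of 11 measured T cell markers, 8 were at or below the floor on every array, and Cd3e lay between -250.0 and -33.4. Summed marker intensities on fresh and cultured arrays were 809 to 1748 and 867 to 1951 for B cells, 2419 to 5099 and 2018 to 4237 for macrophages or monocytes, and -14 to 361 and -124 to 135 for neutrophils. In the average culture effect, 1 of 9 tested macrophage or monocyte markers was higher and 5 were lower. Of 8 tested B cell markers, 2 were higher and 2 lower, and of 4 tested T cell markers, 1 was higher and 0 lower. For plasma cells, 2 of 3 tested markers were higher and 0 lower. Over all 4735 genes with a tested probe set, 16.1% were higher and 24.3% lower. Summed fresh and cultured intensities were 418 to 873 and 853 to 1228 for plasma cells. For red cells they were 408 to 1221 and 465 to 2861, and for NK cells 237 to 1229 and 297 to 1202. Gapdh signal from the transcript's 3' end relative to its 5' end, a reading of RNA quality, was 2.55 on fresh CD8+ replicate 1, 1.97 on cultured CD4+ replicate 1, 1.34 on cultured DN replicate 1 and 0.89 to 1.04 on the other 9 arrays. The same ratio for beta-actin was 0.908, 1.156 and 0.919 on those 3 arrays. It was highest, at 1.276, on cultured CD4+ replicate 2, so the ratios of Gapdh and beta-actin did not single out the same arrays. The noise, the root mean square of the values below 0, was 26.2 to 50.5 on fresh arrays. It was 108 on cultured CD4+ replicate 1 and 42.3 to 82.5 on the other cultured arrays. The floor of 91.37 was the same for all arrays and lay below the noise of cultured CD4+ replicate 1.

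Promoter windows from RefSeq (GRCm38.p6), from 250 bases before to 50 bases after a start site, were found for 8 of the 9 genes, in 10 windows, with 2 each for Mapk14 and Map2k4. Those of 5 members are shown because their transcripts behaved in contrasting ways after culture. Map2k3 went up, Mapk14 and Dusp6 went down, and Dusp1 and Dusp2 varied between replicates. Of the 2 Mapk14 windows the upstream one is shown, and the other, chr17:28692318-28692617, held 0 matches to the motifs searched. Each is read 5′ to 3′ on the gene's strand, and capitals mark every motif match.
Map2k3, chr11:60931804-60932103, + strand: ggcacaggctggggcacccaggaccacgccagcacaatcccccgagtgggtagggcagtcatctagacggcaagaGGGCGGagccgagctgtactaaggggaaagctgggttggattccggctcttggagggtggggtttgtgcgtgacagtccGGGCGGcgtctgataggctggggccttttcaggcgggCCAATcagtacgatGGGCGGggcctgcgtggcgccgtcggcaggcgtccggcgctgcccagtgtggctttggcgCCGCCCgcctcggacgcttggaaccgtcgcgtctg
Mapk14, chr17:28691092-28691391, + strand: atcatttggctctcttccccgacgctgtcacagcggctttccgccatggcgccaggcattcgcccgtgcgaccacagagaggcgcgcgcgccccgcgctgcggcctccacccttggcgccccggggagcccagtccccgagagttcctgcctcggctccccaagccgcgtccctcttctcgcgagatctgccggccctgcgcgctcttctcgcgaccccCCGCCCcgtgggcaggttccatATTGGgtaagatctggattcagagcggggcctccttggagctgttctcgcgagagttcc
Dusp6, chr10:99262981-99263280, + strand: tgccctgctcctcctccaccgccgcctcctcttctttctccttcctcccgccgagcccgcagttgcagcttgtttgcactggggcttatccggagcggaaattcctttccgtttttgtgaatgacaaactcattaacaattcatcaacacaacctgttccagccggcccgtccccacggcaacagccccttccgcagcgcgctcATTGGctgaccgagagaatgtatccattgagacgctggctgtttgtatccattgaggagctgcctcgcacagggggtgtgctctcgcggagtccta
Dusp1, chr17:26508423-26508722, - strand: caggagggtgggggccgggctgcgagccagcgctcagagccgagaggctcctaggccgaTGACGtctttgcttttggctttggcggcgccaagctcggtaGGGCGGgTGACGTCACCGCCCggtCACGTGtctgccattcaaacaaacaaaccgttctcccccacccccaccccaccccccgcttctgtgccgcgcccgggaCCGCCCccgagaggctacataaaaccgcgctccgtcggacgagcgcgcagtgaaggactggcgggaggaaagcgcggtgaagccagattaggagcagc
Dusp2, chr2:127335909-127336208, + strand: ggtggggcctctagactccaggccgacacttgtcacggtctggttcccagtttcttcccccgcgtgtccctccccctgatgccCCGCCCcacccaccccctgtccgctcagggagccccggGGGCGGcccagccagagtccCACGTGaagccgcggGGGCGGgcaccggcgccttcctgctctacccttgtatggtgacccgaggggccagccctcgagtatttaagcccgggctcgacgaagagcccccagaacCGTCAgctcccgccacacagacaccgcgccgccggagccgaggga

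Both strands were searched for AP-1 (TGANTCA), the cAMP response element or CRE (TGACGTCA), its shorter form (TGACG, which overlaps it), a serum response element (SRE), NF-kB (GGG, any 3 bases, TTCC), EGR (GCGTGGGCG), a heat shock element (GAA, any 2 bases, TTC, any 2 bases, GAA), the E-box (CACGTG), the CCAAT box (CCAAT), the TATA box (TATAAA) and the GC box (GGGCGG). The Dusp1 window held the full CRE, at position -143 from the start site, which 1.79% of 32851 promoter windows held. The Dusp1 and Dusp2 windows each held an E-box, at positions -126 and -109, a motif of 7.15% of windows. GC boxes stood at 4 places in the Map2k3 window, 3 in those of Dusp1 and Dusp2, 1 in the Mapk14 window shown and 0 in that of Dusp6. At least 1 was present in 35.7% of all windows. G and C bases made up 68.0% of the Map2k3 window, 67.0% for Dusp1, 70.7% for Dusp2, 68.7% for Mapk14 and 57.3% for Dusp6. The median over all windows was 52.7%. A link between GC boxes and the culture effect was not tested. The CCAAT box (37.4% of windows) was present once in the Map2k3, Mapk14 and Dusp6 windows. The shorter CRE form (20.8% of windows) was matched 3 times for Dusp1 and once for Dusp2. Matches to AP-1 (7.81%), SRE (0.0639%), NF-kB (5.56%), EGR (0.612%) and TATA (13.6%) were not in these 5 windows, and neither was the heat shock element (0.603%). A match describes letters in this window only.

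Of the 13 member probe sets, 11 were tested because 2 or more of the 12 arrays exceeded the floor, and these covered all 8 matched genes. The other 2 were a probe set of Map2k3 (93313_at), between -14.5 and 27.0, and one of Map2k1 (162082_r_at), between -9.6 and 30.2, both below the floor on every array. Map2k4 (3 arrays above the floor), Dusp6 93285_at (6 arrays) and Dusp6 161536_r_at (8 arrays) were above it on part of the arrays. The other 8 probe sets were above it on all 12.

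The comparison of cultured with fresh cells asks how the cascade's transcripts stood after the culture period. In the effect averaged over the 3 subsets, limma called 7 of the 11 tested member probe sets at an adjusted p under 0.05, while 39.3% of all 6159 tested probe sets were called. Those 7 belonged to Map2k3 and Mapkapk2 (both probe sets of each), Mapk14, Dusp2 and Dusp6 (1 of 2). Over the 6 cultured and 6 fresh arrays, the values did not overlap for 6 member probe sets, against 17.8% of all tested. Since members were proposed with these results known, nothing is read from these shares. In sorted populations such as these, fewer cells of a type and less RNA per cell cannot be told apart. The summed intensity of the dendritic cell markers was 31899 to 59908 on fresh and 74400 to 102418 on cultured arrays, with 6 of 10 markers higher and 3 lower. Bright genes weigh most in this sum. Cd74 had 5623 to 12413 on fresh and 14955 to 22878 on cultured arrays, and H2-Ab1 had 5077 to 8086 and 10563 to 18481. Itgax, which encodes CD11c, had 1450 to 3210 on fresh and 874.5 to 2374 on cultured arrays. The part of the summed intensity in the results was not tested.

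Among the member MAP kinase kinases, Map2k3 showed the rise. It encodes MKK3, which phosphorylates and activates p38. On probe set 93315_at, fresh intensities were 358.6 and 359.1 in CD4+ cells, 351.2 and 488.3 in CD8+ cells, and 280.5 and 284.9 in DN cells. Cultured intensities were 1719 and 1937 in CD4+, 2253 and 2140 in CD8+, and 1617 and 2155 in DN cells. The lowest cultured array lay above the highest fresh array by a wide margin. Among fresh arrays both DN values lay below the other 4, and fresh CD8+ minus DN was 0.55 ± 0.26 (adjusted p = 0.571). Averaged over the subsets, the difference on the generalised log2 scale, which stays defined below 0, was 2.49 ± 0.15 (SE), or 5.6-fold (adjusted p = 1.24e-06). By subset it was 2.34 ± 0.26 in CD4+ (adjusted p = 0.000356), 2.40 ± 0.26 in CD8+ (adjusted p = 0.000382) and 2.71 ± 0.26 in DN cells (adjusted p = 0.000252). Of the tested MAP kinase kinases outside the member list, Map2k6 (average difference -1.86) and Map2k5 (-1.18) were called lower. Map2k2 (0.32) was not called.

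The second tested Map2k3 probe set, 93314_g_at, ran from 172.4 to 587.2 on fresh and from 1557 to 2278 on cultured arrays. It gave nearly the same average difference, 2.45 ± 0.24 (5.46-fold, adjusted p = 3.29e-05). In DN cells its call (1.97 ± 0.42, adjusted p = 0.0153) was lost without fresh DN replicate 2 (adjusted p = 0.167), cultured DN replicate 1 (0.071) or cultured DN replicate 2 (0.0727). Its suffix marks probes shared with another probe set, so both readings may rest partly on the same probes.

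Map2k1 encodes MEK1, the kinase that activates ERK. Its probe set 92585_at had fresh intensities of 678.3 and 689.7 in CD4+, 420.8 and 457.4 in CD8+, and 636.1 and 754.9 in DN cells. After culture it had 439.8 and 326.3, 587.4 and 413.9, and 554.1 and 341.1 in the same order. The CD4+ and DN arrays were lower after culture, whereas the cultured CD8+ arrays lay on either side of the fresh ones. The average difference of -0.45 ± 0.18 was not called (adjusted p = 0.0698). It passed with the replicate number as a block (adjusted p = 0.0492), without the 3 arrays of high Gapdh ratio (-0.66, adjusted p = 0.013), and without cultured CD4+ replicate 1 (0.049) or cultured DN replicate 1 (0.0423).

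Map2k4 encodes MKK4, which activates the stress kinase JNK and, in some settings, p38. Its intensities ran from 52.3 to 160.8 on fresh and from 52.6 to 142.7 on cultured arrays, close to the floor in both states. The average difference of 0.09 ± 0.31 was not called (adjusted p = 0.831), and at this signal a change within that standard error was not detectable.

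Mapk14, which encodes p38 alpha, the main p38 kinase of myeloid cells, moved the other way from Map2k3. Fresh intensities of its probe set 99978_s_at were 2553 and 2652 in CD4+, 1417 and 1560 in CD8+, and 2159 and 2074 in DN cells. Cultured intensities were 251.4 and 316.2 in CD4+, 244.6 and 462.1 in CD8+, and 384.3 and 422.5 in DN cells. Every cultured array was below every fresh array, and all 12 lay above the floor. The average difference was -2.57 ± 0.18, or 5.95-fold lower (adjusted p = 2.99e-06). CD4+ cells, the brightest fresh group, fell by 3.20 ± 0.30 on the log2 scale (adjusted p = 0.000154). The difference was -2.14 ± 0.30 in CD8+ (adjusted p = 0.00205) and -2.39 ± 0.30 in DN cells (adjusted p = 0.00107). The suffix of this single probe set marks probes that can also match related transcripts.

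Mapkapk2 encodes MK2, the kinase that p38 activates and that stabilises cytokine mRNAs. On probe set 95721_at, fresh arrays had 1090 and 906.3 in CD4+, 721.3 and 925.3 in CD8+, and 1041 and 803.7 in DN cells. Cultured arrays had 1478 and 1462, 1686 and 1105, and 1617 and 1481 in the same order. The states did not overlap, although cultured CD8+ replicate 2 came close to the brightest fresh array, CD4+ replicate 1. The average difference was 0.69 ± 0.16, or 1.61-fold (adjusted p = 0.00693), and 0 of the 3 subset differences, 0.56 to 0.76, was called alone. Probe set 160353_i_at ran from 169.0 to 195.1 on fresh and from 227.1 to 360.7 on cultured arrays (0.52 ± 0.18, adjusted p = 0.0391). That call was lost in 10 of the 12 fits that left out 1 array, the exceptions being fresh CD8+ replicate 2 and cultured CD4+ replicate 1, with adjusted p up to 0.0963.

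**Figure D1:**
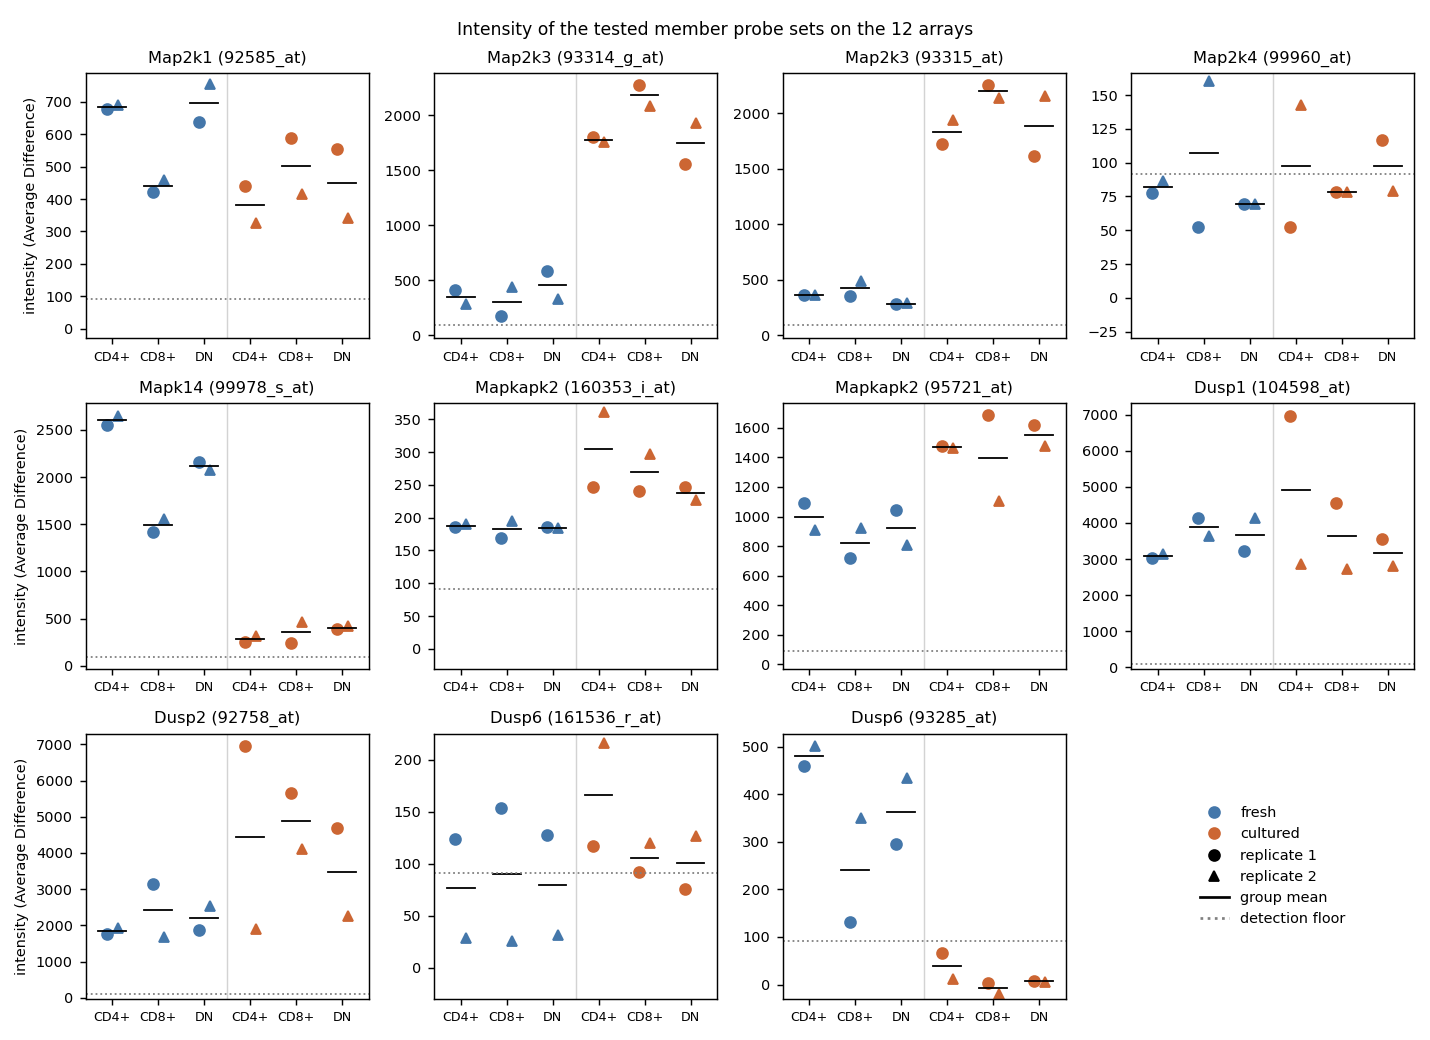
Intensity (Average Difference, linear scale) of the 11 tested member probe sets on the 12 arrays, 1 panel for each; circles are replicate 1, triangles replicate 2, black lines group means and the dotted line the detection floor of 91.37. Map2k3 stands at 1557 to 2278 on all cultured arrays and Mapk14 at 244.6 to 462.1, while Dusp1 and Dusp2 spread widely between cultured replicates.

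Dusp6 encodes MKP-3, a cytoplasmic phosphatase that acts mainly on ERK. On probe set 93285_at, fresh intensities were 459.4 and 501.9 in CD4+, 130.6 and 351.2 in CD8+, and 295.2 and 433.6 in DN cells. After culture they were 67.3 and 11.7, 3.7 and -19.6, and 7.4 and 5.8, all below the floor. Culture therefore left only a bound. The transcript was at least 5.27-fold lower in CD4+ cells, 2.38-fold in CD8+ cells and 3.93-fold in DN cells. These bounds set a value below the floor to the floor. Adjusted p in limma, without that step, was 0.00312 in CD4+, 0.00405 in CD8+ and 0.00259 in DN cells. These p-values do not test the bounds. The CD8+ bound was 3.86-fold without fresh replicate 1, the array with a Gapdh ratio of 2.55, and 1.47-fold without fresh replicate 2. With all values below the floor set to it in the fit, the CD8+ call was lost (adjusted p = 0.104). The CD4+ call (adjusted p = 0.00421) and the DN call (adjusted p = 0.0161) were kept. In the fit as described, the DN call was lost without fresh DN replicate 2 (adjusted p = 0.0532).

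Its other probe set, 161536_r_at, disagreed. Fresh replicate 1 of the 3 subsets had 124.2, 153.4 and 127.8, and fresh replicate 2 had 28.2, 26.0 and 31.4, in the order CD4+, CD8+ and DN. The fresh arrays thus split by replicate number and not by subset. Cultured arrays had 75.3 to 215.8, and the average difference of 0.70 ± 0.44 was not called (adjusted p = 0.224). It was called without the 3 arrays of high Gapdh ratio (1.29, adjusted p = 0.0451). Its suffix marks a probe set for which design rules were relaxed. The decrease of Dusp6 rests on 93285_at alone.

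Dusp2 encodes PAC-1, a nuclear phosphatase of ERK and p38 that is induced in activated leukocytes. Fresh arrays had 1758 and 1936 in CD4+, 3133 and 1688 in CD8+, and 1882 and 2545 in DN cells. Cultured arrays had 6956 and 1909, 5654 and 4107, and 4683 and 2253 in the same order. In each cultured subset replicate 1 was the brighter array, by 3.64, 1.38 and 2.08 times, and the states overlapped. The average difference of 0.87 ± 0.32, or 1.83-fold, narrowly passed (adjusted p = 0.0487). By experiment number, cultured exceeded fresh in 4 of 6 pairs, with log2 differences from -0.18 to 1.98.

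That call depended on the processing. It was lost in 9 of the 12 fits that left out 1 array (adjusted p up to 0.135), and was kept without fresh CD8+ replicate 1, cultured CD4+ replicate 2 or cultured DN replicate 2. Quantile normalization also ended it (0.55, adjusted p = 0.142). Without cultured CD4+ replicate 1, the brightest array, the difference was 0.56 (adjusted p = 0.0937). Without all 3 arrays of high Gapdh ratio it was 0.53 and was called (adjusted p = 0.0256). Noise and Gapdh ratio were high on cultured CD4+ replicate 1, and their part in the Dusp2 value was not tested.

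Dusp1 encodes MKP-1, a nuclear phosphatase of p38 and JNK that limits inflammatory cytokine output. Its fresh intensities were 3037 and 3144 in CD4+, 4150 and 3636 in CD8+, and 3228 and 4132 in DN cells. Its cultured intensities were 6966 and 2852, 4542 and 2728, and 3559 and 2796 in the same order. As for Dusp2, replicate 1 was the brighter cultured array in all 3 subsets, by 2.44, 1.66 and 1.27 times. Cultured arrays lay both above and below the fresh range. The average difference was 0.06 ± 0.23 (adjusted p = 0.848), and its sign turned under quantile normalization (-0.30) and without cultured CD4+ replicate 1 (-0.16). Dusp1 and Dusp2 varied together within each state, with r = 0.80 over the 6 fresh and r = 0.80 over the 6 cultured arrays, which share subset and replicate number.

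**Figure D2:**
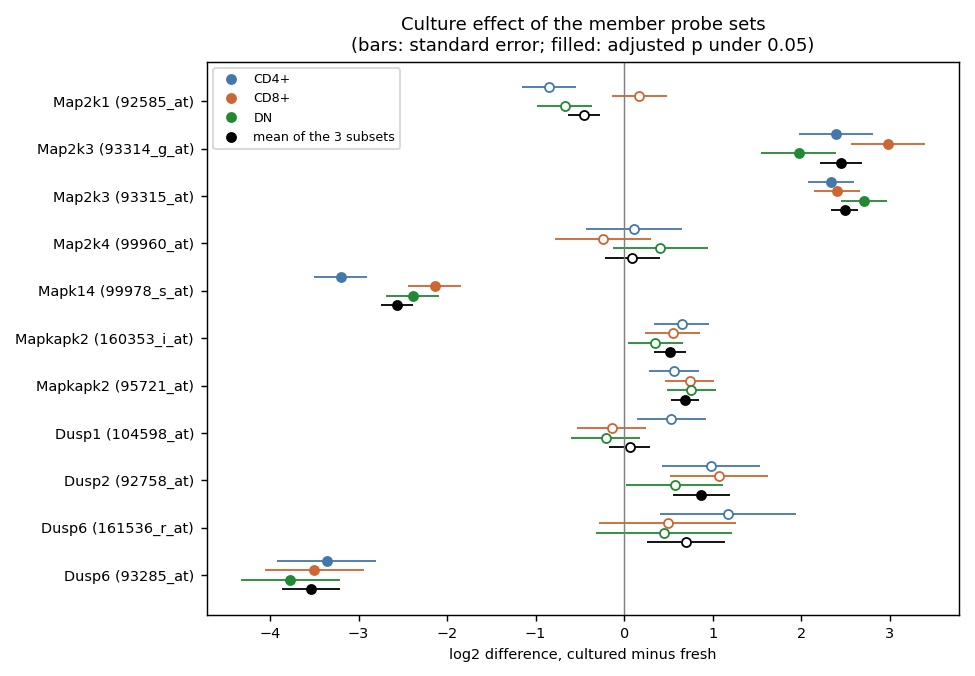
Differences between cultured and fresh cells (log2 scale, x axis) for the 11 tested member probe sets in each subset and as the mean of the 3, with the standard error as bars and filled points for an adjusted p under 0.05. Map2k3 lies near 2.5, Mapk14 near -2.6 and Dusp6 93285_at near -3.5, where cultured values are below the floor and the plotted size is no measured fold.

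Within single subsets, limma called the same 4 member probe sets in each, namely both of Map2k3, that of Mapk14 and Dusp6 93285_at. Of all tested probe sets, 18.4% were called in CD4+, 8.13% in CD8+ and 9.9% in DN cells. The difference in culture effect between subsets was tested directly, and 0 of 11 members were called for CD8+ minus CD4+, CD8+ minus DN or DN minus CD4+, as were 0% of all probe sets in each of the 3. At an unadjusted p under 0.05 there were 2, 0 and 0 members. These were Mapk14, whose decrease was smaller in CD8+ (-2.14) than in CD4+ cells (-3.20), a difference of 1.06 ± 0.43 (adjusted p = 0.586), and Map2k1. For Map2k1 the values were 0.17 in CD8+ and -0.85 in CD4+ cells, a difference of 1.02 ± 0.45 (adjusted p = 0.586). The intervals are wide, so these data do not show whether the subsets differed in the culture effect.

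Subsets were compared within the fresh state to ask whether the cascade differed at isolation. Between fresh CD8+ and CD4+ cells limma called 0 of 11 members (1.98% of all tested; 1 member at an unadjusted p under 0.05). Between fresh CD8+ and DN cells it called 0 (1.43%; 0 unadjusted), and between fresh DN and CD4+ cells 0 (0%; 0 unadjusted). The levels of Mapk14 ran CD4+, then DN, then CD8+, with no overlap between the pairs of arrays. CD8+ stood below CD4+ by -0.81 ± 0.30 on the log2 scale (adjusted p = 0.306), and DN and CD4+ differed by -0.30 ± 0.30 (adjusted p = 1). Map2k1 had the same low CD8+ position, with -0.64 ± 0.31 against CD4+ (adjusted p = 0.512) and -0.66 ± 0.31 against DN (adjusted p = 0.571). For these 2 probe sets both fresh CD8+ arrays lay outside the range of the other 4 fresh arrays, as they did for 23.3% of all tested probe sets. Dusp6 93285_at was also lowest in CD8+ cells (-1.14 ± 0.56 against CD4+, adjusted p = 0.512), though replicate 2 of CD8+ cells overlapped the DN arrays. For the other member probe sets, the differences between fresh subsets were between -0.68 and 0.55.

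**Figure D3:**
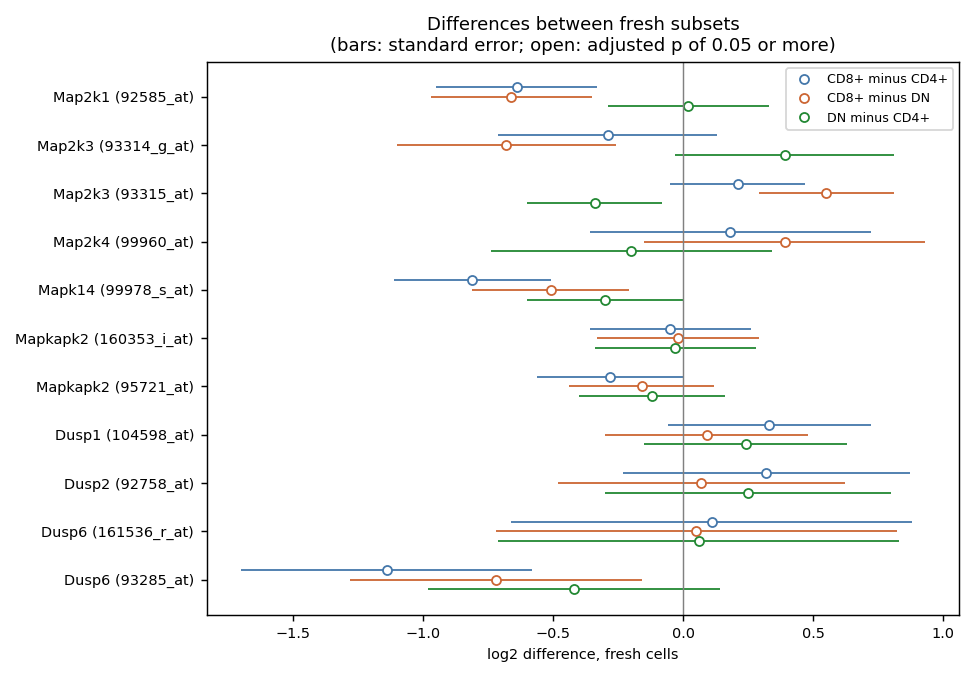
Differences between fresh subsets (log2 scale, x axis) for the 11 tested member probe sets, with the standard error as bars; open points have an adjusted p of 0.05 or more, as all do here. Mapk14, Map2k1 and Dusp6 93285_at lie to the left for CD8+ cells, at -0.81, -0.64 and -1.14 against CD4+ cells.

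Between cultured subsets limma again called 0 of 11 members for CD8+ against CD4+ (2.29% of all tested), CD8+ against DN (1.3%) and DN against CD4+ (0%). Unadjusted, 1, 0 and 0 members had p under 0.05. The 1 was Dusp6 93285_at, whose values there were below the floor. Without the 3 arrays of high Gapdh ratio 1 call appeared, Dusp2 in CD8+ against CD4+ cells (1.34 ± 0.29, adjusted p = 0.0232), which then rested on a single cultured CD4+ array, assumed to vary like the other groups.

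The other genes of these pathways were taken from 6 lists drawn up from general knowledge, but with earlier results of these data known. Counts of called genes in these lists are therefore a description and no independent evidence. The members were left out and each gene was represented by its brightest tested probe set. Over the 4735 genes so represented, 16.1% were higher and 24.3% lower after culture in the average over subsets, with a median difference of -0.06. Among other kinases of the cascades, 19 of 39 were tested, 5 were higher and 6 lower (median 0.11). Map4k4, a kinase upstream of JNK, rose from 159.6 to 493.4 in fresh cells to 1140 to 1898 in cultured cells (2.62 ± 0.19, adjusted p = 5.24e-06). Mapk7, which encodes ERK5, fell from 75.6 to 210.6 to values below the floor (adjusted p = 0.000735). Araf, which encodes a RAF kinase upstream of MEK, had 67.0 to 306.2 before and -13.2 to 92.2 after culture (adjusted p = 0.00225).

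Of 9 tested genes for RAS proteins and adaptors, 0 were higher and 1 lower (median -0.31). That gene was Shc1, which encodes an adaptor between receptors and RAS, with 159.3 to 352.8 in fresh and 58.6 to 130.3 in cultured cells (-0.99 ± 0.24, adjusted p = 0.00768). Of 7 tested other phosphatases and feedback inhibitors, 2 were higher and 0 lower (median 0.11). They were Ppp2ca, the catalytic subunit of PP2A (1.07 ± 0.20, adjusted p = 0.00217), and Ptprr, a tyrosine phosphatase of MAP kinases (0.92 ± 0.33, adjusted p = 0.0476). The states overlapped for both, with 80.9 to 172.5 fresh and 141.3 to 350.6 cultured for Ppp2ca. Ptprr had 131.0 to 271.1 fresh and 236.8 to 768.8 cultured, the highest on cultured CD4+ replicate 1. Its fresh values were 265.5, 271.1 and 263.9 on replicate 1 and 141.5, 131.0 and 159.4 on replicate 2. Of 11 tested transcription factors that MAP kinases phosphorylate, 1 was higher and 3 lower (median -0.06). Stat3, a cytokine response factor, was the higher one (1.33 ± 0.20, adjusted p = 0.000445), and Fos, an AP-1 subunit, was among the lower ones (-1.48 ± 0.15, adjusted p = 4.69e-05).

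Immediate-early and ERK-linked target transcripts were mostly lower after culture, with 11 of 18 tested genes lower and 2 higher (median -1.10). This list shares Jun and Fos, both called lower, and Myc, not called, with the factors above. Jun, an AP-1 subunit, fell from 465.2 to 1798 down to 111.8 to 299.3 (-2.57 ± 0.27, adjusted p = 4.69e-05). Egr1, a zinc finger factor induced through ERK, fell from 1458 to 2719 down to 173.2 to 695.7 (-2.48 ± 0.35, adjusted p = 0.000319). Klf4, a Kruppel-like factor, had 662.0 to 1589 before and 66.4 to 485.2 after (-2.01 ± 0.20, adjusted p = 3.1e-05). Fresh CD8+ cells had less Ccnd1, the gene of cyclin D1, than fresh CD4+ cells (-2.01 ± 0.29, adjusted p = 0.00426) and DN cells (-1.58 ± 0.29, adjusted p = 0.0208). They also had less Ier3, an early response gene, than CD4+ cells (-1.88 ± 0.38, adjusted p = 0.0296).

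Of 16 tested genes of the p38-MK2 axis and its AU-rich target mRNAs, 7 were higher and 3 lower (median 0.49). Il6 and Cxcl2, an inflammatory cytokine and a neutrophil chemokine, were below the floor on all fresh arrays. Cultured arrays reached 45.3 to 416.2 for Il6 (adjusted p = 0.00119) and 65.9 to 731.4 for Cxcl2 (adjusted p = 0.000264). Replicate 2 of cultured CD4+ and DN cells stayed below the floor for both. Zfp36l2, which encodes a protein that destabilises AU-rich mRNAs, fell from 1098 to 2158 down to 99.6 to 412.9 (-2.77 ± 0.21, adjusted p = 6.72e-06).

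**Figure D4:**
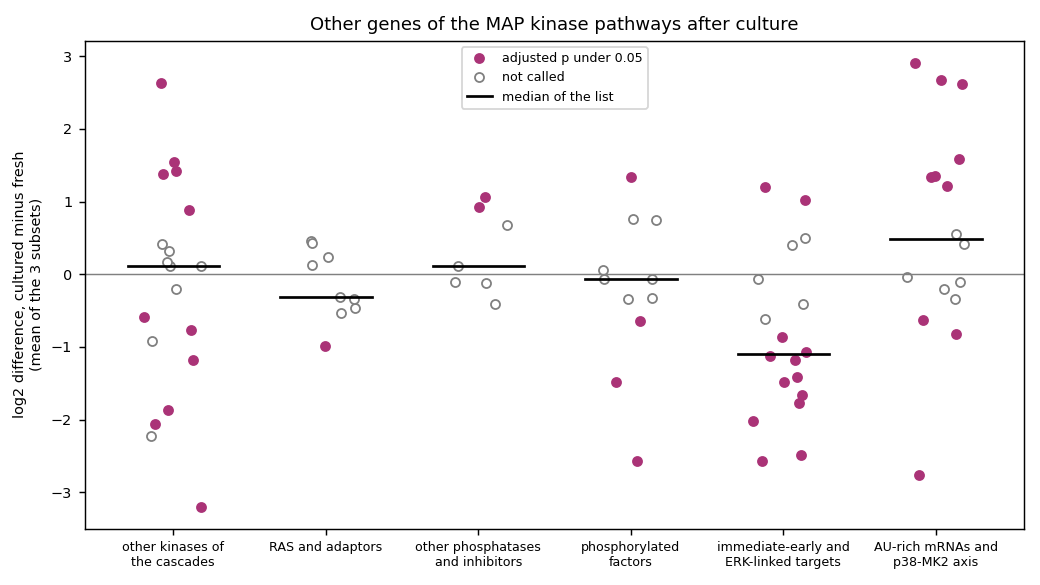
Differences between cultured and fresh cells (log2 scale, mean of the 3 subsets, y axis) for the tested genes of 6 pathway lists, 1 point for each gene; filled points have an adjusted p under 0.05 and black lines are list medians. The immediate-early and ERK-linked targets have a median of -1.10 and the p38-MK2 axis genes one of 0.49. Genes measured below the floor in 1 state have no measured fold.

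The genes most like each member were taken by Pearson's r over the 12 arrays. For Map2k3 these were Sqstm1 (0.986), Txnrd1 (0.985) and Procr (0.981), which encode a selective autophagy receptor, thioredoxin reductase and the protein C receptor. Their r with Map2k3 was 0.71, 0.31 and 0.90 over the 6 fresh arrays and 0.59, 0.25 and 0.51 over the 6 cultured arrays. For Mapk14 they were Was (0.982), Phf12 (0.980) and Grk6 (0.977). For Mapkapk2 they were Stat5a (0.945), Stat3 (0.941) and Ric8a (0.940), and for Dusp6 Ppp1r21 (0.966), Ier2 (0.966) and Ugdh (0.959). For Dusp2 the closest were Pomc (0.913), Socs3 (0.908) and Mbl2 (0.901), with r of 0.95, 0.92 and 0.90 over the cultured arrays and 0.27, 0.31 and 0.42 over the fresh arrays. Dusp1 was closest to Cited2 (0.866), Cd99 (0.845) and B3galt6 (0.840), Map2k1 to Il17ra (0.886), Cdkn2aipnl (0.876) and Slc9a3r1 (0.860), and Map2k4 to Fdps (0.869), Gabarap (0.845) and Cs (0.819). Some of these genes were dim. Pomc had 37.0 to 55.6 on fresh and 43.4 to 112.1 on cultured arrays, and Mbl2 had 61.1 to 91.5 and 51.3 to 285.8. B3galt6 had 44.4 to 170.0 on fresh and 37.6 to 204.2 on cultured arrays. Phf12 and Grk6 were below the floor on all cultured arrays, at 54.8 to 87.2 and -194.3 to -20.7. The correlations describe these arrays, which share subsets, states and replicate numbers.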

How the data were processed

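RNA of 12 sorted cell samples was measured on oligonucleotide arrays. Global scaling of the Average Difference intensities was done by the authors before they were deposited, per the labels. Software is not given in the sources used here. In all, the table held 12488 probe sets, and 66 controls were left out. The platform annotation gave 1 symbol to 10833 probe sets, several to 396 and none to 1193. Each deposited intensity x was turned into log2 of (x + sqrt(x² + c²)) / 2. The constant c was 45.69, which is the quadratic mean of the negative values on each array, taken as the median of the arrays. It understates changes of dim probe sets, while values below 0 can inflate them. The floor was 2 times c. Probe sets above it on at least 2 arrays (6159) were fitted in limma 3.58.1 (R 4.3.3). The model used all 12 arrays, a mean for each of the 6 groups, and eBayes with trend and robust estimation. P-values were adjusted by Benjamini-Hochberg over all 6159, and the fit was tested on simulated data. Precision is limited by the 2 arrays per group.

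Experiment numbers in the titles were taken to pair the arrays, since deviations of same-numbered arrays from their group means correlated by 0.106 to 0.444 in all 15 pairs of groups. The fit with the number as a block was an alternative, beside offset, floor, filter, normalization, moderation, array weights, arrays fitted and leaving out each array. Members and lists were chosen with earlier results of these data known. The text names all members and the 3 genes most correlated with each member. From each pathway list it names the called genes with the largest differences (3 in the average culture effect, 2 in each fresh comparison). The other tested MAP kinase kinases are named as well. Tables and figures used Python 3.11.15, pandas 2.3.3, numpy 2.4.6 and matplotlib 3.10.9.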

Additional observations from a re-analysis of the deposited data

How the results depend on the processing

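The number of calls among member probe sets for the average culture effect was 7, and ran from 5 to 9 over the alternatives, with 9 without the 3 arrays of high Gapdh ratio. Leaving out 1 array gave 5 to 7, the replicate block 8, and taking only the brightest probe set of each gene 5. The calls summed over the 3 subsets numbered 12, with 10 to 14 when 1 array was left out 12 with the replicate block and 9 with only the brightest probe set of each gene. Between fresh subsets and for differences in culture effect the count was 0 in every setting run. Between cultured subsets it was 0 except for 1 without the 3 arrays of high Gapdh ratio. Map2k3 (both probe sets), Mapk14, Mapkapk2 95721_at and Dusp6 93285_at kept their direction and call for the average culture effect in all 23 alternative settings of the fit. The average difference ran from -2.73 to -2.42 for Mapk14, 2.40 to 2.56 and 2.23 to 2.67 for Map2k3 93315_at and 93314_g_at, 0.58 to 0.79 for Mapkapk2 95721_at, and -4.33 to -1.86 for Dusp6 93285_at. The Dusp2 call was lost in 14 settings and that of Mapkapk2 160353_i_at in 11. With the replicate block, Map2k1 was called (adjusted p = 0.0492), and no other member call changed.

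The uncalled differences that changed sign were those of Dusp1 and Map2k4. That of Dusp1 was -0.30 under quantile normalization, -0.18 without the 3 arrays of high Gapdh ratio, -0.16 without cultured CD4+ replicate 1 and -0.06 without cultured CD8+ replicate 1, and its highest value was 0.27, without cultured CD4+ replicate 2. For Map2k4 it was -0.02 without the arrays of high Gapdh ratio, -0.15 without fresh CD8+ replicate 1 and -0.12 without cultured CD4+ replicate 2, and its highest was 0.33, without fresh CD8+ replicate 2. The cause was not tested. The filter of 6 arrays left out Map2k4.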

Other observations

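The probe sets of Map2k3 and Mapk14 correlated by -0.96 over all 12 arrays, but by -0.37 over the 6 fresh and 0.10 over the 6 cultured arrays. The 2 tested Map2k3 probe sets had r = -0.09 over the fresh arrays and 0.90 over the cultured arrays.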
